A study of Mus musculus with 3 samples.

Results

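Mucins are large glycoproteins that coat epithelia, and trefoil peptides are small secreted peptides released together with them. The 10 genes described here are 7 mucins (Muc1, Muc2, Muc4, Muc5ac, Muc6, Muc13 and Muc20) and the 3 trefoil genes Tff1, Tff2 and Tff3. They were chosen by symbol from a table of 22757 named genes, and all 10 were found in it. RNA-seq was available for 3 mouse (Mus musculus) pancreatic tumour cell lines of the HI-Panc model, with 1 library for each stage: localized (HI-Panc-L), invasive (HI-Panc-I) and last metastatic (HI-Panc-M). Every line carried the genotype K-rasG12D/p16-/- and was grown in DMEM with 10% fetal bovine serum. The treatment text, shared by all 3 labels, describes cobalt chloride at 100 ng/ml for 24 h in hypoxic cell models and does not say which libraries came from treated cells. The localized line has the tissue label Body wall, the invasive line pancreatic tissue and the metastatic line Liver, so the first 2 do not follow the order of the stages. Groups follow the stage labels, and were the first 2 lines swapped, each direction between them would be reversed, their comparisons with the metastatic line would be exchanged, and the order along the stages would change. The promoter that drives the transgene, the age of the mice, and whether a line is 1 clone or pooled are not given in the sources used here.

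Mucins fall into membrane-anchored forms, which carry a long O-glycosylated ectodomain and a cytoplasmic tail, and secreted gel-forming forms, which polymerise into mucus. Muc1, Muc4, Muc13 and Muc20 belong to the first class, Muc2, Muc5ac and Muc6 to the second. In the normal gut the secreted mucins and the trefoil peptides occur in pairs: Muc5ac with Tff1 in the gastric surface epithelium, Muc6 with Tff2 in gastric glands, and Muc2 with Tff3 in intestinal goblet cells. Normal pancreatic ducts express MUC1 in human, and MUC4 and MUC5AC are known to appear in human pancreatic tumours.

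Levels are FPKM, fragments per unit of transcript length and of mapped fragments, a scale that corrects for length and so allows levels of different genes to be compared. With 1 library per stage (n = 1) there is no spread between replicates, no test and no p-value, and each difference compares these libraries alone. The precision given is a 95% counting interval from an estimated number of fragments, which covers counting error only. The localized library had an estimated depth of 45400000 fragments, the invasive 41000000 and the metastatic 43300000. A gene was called higher or lower where log2(FPKM + 1) differed by at least 1 (2-fold) and its mean over the 3 libraries was at least 1 FPKM. On that scale folds of weakly expressed genes come out too small. Over the 11404 genes past this filter the median difference was -0.0014 (invasive minus localized), 0.0041 (metastatic minus localized) and -0.0086 (metastatic minus invasive). In a bulk library, fewer cells of a type and less RNA per cell cannot be told apart.

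The membrane mucins were the members with higher levels in the invasive and metastatic libraries, and the promoters of those 4 genes are shown for that reason. That of Muc2 is shown beside them, a gene under the filter whose highest level was in the localized library. RefSeq (GRCm38.p6) promoter entries matched 6 of the 10 members, which leaves Muc5ac, Tff1, Tff2 and Tff3 named only. Each sequence is the 250 bases before the start site on the gene's own strand, 5′ to 3′, from chr3:89228806-89229055 (plus strand, Muc1), chr16:33793787-33794036 (plus, the upstream of the pair of Muc13 start sites), chr16:32735636-32735885 (plus, Muc4), chr16:32797436-32797685 (minus, Muc20) and chr7:141690090-141690339 (plus, Muc2). Capitals mark matches on either strand to the letters listed after the sequences.
Muc1: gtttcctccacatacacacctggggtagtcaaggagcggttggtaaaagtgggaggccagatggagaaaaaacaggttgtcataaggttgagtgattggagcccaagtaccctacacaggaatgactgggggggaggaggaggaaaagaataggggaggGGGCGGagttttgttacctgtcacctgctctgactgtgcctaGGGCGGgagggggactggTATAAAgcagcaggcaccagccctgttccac
Muc13: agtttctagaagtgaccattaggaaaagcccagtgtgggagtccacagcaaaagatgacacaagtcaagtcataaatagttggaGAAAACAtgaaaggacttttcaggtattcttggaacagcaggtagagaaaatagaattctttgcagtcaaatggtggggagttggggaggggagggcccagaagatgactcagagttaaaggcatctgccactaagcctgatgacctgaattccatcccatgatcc
Muc4: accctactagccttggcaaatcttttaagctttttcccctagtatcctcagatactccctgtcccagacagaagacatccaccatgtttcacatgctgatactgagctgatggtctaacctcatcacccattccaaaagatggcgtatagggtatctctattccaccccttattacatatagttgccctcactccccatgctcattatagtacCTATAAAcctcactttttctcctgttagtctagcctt
Muc20: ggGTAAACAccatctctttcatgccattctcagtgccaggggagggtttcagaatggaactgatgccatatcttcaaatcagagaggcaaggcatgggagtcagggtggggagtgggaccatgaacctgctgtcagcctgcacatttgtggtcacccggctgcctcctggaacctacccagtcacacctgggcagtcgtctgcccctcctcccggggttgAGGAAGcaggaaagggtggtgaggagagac
Muc2: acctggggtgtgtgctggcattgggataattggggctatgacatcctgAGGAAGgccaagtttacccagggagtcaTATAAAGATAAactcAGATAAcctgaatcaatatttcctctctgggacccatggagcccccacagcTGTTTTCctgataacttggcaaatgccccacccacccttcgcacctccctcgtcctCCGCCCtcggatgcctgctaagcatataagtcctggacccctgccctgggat
The letters searched, on both strands, were TATAAA for the TATA box, GGGCGG (GC box of Sp and Klf factors), TTTATNG (caudal type, Cdx), AGATAA for factors of the Gata family, TGTTTNC (forkhead, Foxa), AGGAAG (ETS type, Elf3 and Ehf), and the HNF1 motif. Of 32851 windows of the same length in the table, 12.4% held the TATA box letters, 32.7% the GC box, 9.81% the caudal, 9.99% the GATA, 17.8% the forkhead, 29.5% the ETS type and 0.0335% the HNF1 letters. The Muc1 window held TATAAA, starting at base -31 from the start site, and 2 GC boxes starting at -91 and -49. The Muc4 window held TATAAA at -36, and its caudal match on the opposite strand, starting at -37, overlaps those letters. The Muc13 window held 1 match, the forkhead letters on the opposite strand at -166, and the window of its other start site held none. In Muc20 the forkhead letters lay at -248 on the opposite strand and the ETS letters at -30. The Muc2 window held 2 GATA matches, at -169 and -159, the first overlapping TATAAA at -174, and 1 match each of the GC, forkhead and ETS letters. The Muc6 window, not printed, held 1 GATA match at -194. A match describes letters in a window and does not show a site.

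Muc1, a transmembrane mucin of ductal and other simple epithelia (ENSMUSG00000042784.9, GRCm38 chromosome 3, 89229057 to 89233381, plus strand), had 0.297 FPKM in the localized, 111 FPKM in the invasive and 112 FPKM in the metastatic library. The localized library was the low one, and the other 2 were alike. These levels correspond to about 28, 9384 and 9983 fragments. The invasive library was 373-fold higher than the localized library (counting interval 257 to 559) and the metastatic library 376-fold higher (258 to 563). Between the metastatic and invasive libraries the ratio was 1.01, with an interval of 0.979 to 1.04 that includes 1. On the log2(FPKM + 1) scale the 3 differences were 6.43, 6.44 and 0.01. Muc1 lay above 45.2% of all genes in localized cells and above 96.5% in both other libraries.

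Muc13, a transmembrane mucin of intestinal enterocytes (ENSMUSG00000022824.12, chromosome 16, 33794037 to 33819934, plus strand), differed between every pair of libraries by more than counting error, as did Tff1 and Tff2. It had 0.133 FPKM in the localized, 4.59 FPKM in the invasive and 44.7 FPKM in the metastatic library, from about 17, 525 and 5409 fragments. The invasive library was 34.4-fold above the localized library (21.2 to 59.2), and the metastatic library 336-fold above it (208 to 573). Where Muc1 was level, Muc13 was 9.75-fold higher in the metastatic than in the invasive library (8.92 to 10.7), a log2(FPKM + 1) difference of 3.03. As a share of the summed FPKM of the 7 mucins, Muc13 made up 18.9% of 0.705 FPKM in the localized, 3.94% of 116 FPKM in the invasive and 28.4% of 158 FPKM in the metastatic library. Muc1 made up 42.1%, 95.2% and 70.8% in the same libraries.

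Muc4, a membrane mucin that binds ErbB2 (chromosome 16, 32735886 to 32782391, plus strand), had 0.00394 FPKM in the localized, 0.498 FPKM in the invasive and 0.604 FPKM in the metastatic library. Its long transcript gave about 2, 227 and 291 fragments, with each level under 1 FPKM. The ratio was 126 for invasive over localized (34.4 to 1044), 154 for metastatic over localized (41.9 to 1266) and 1.21 for metastatic over invasive (1.02 to 1.45). The localized level is under the floor of 3 fragments (0.00595 FPKM), so the first 2 ratios rest on about 2 fragments. With fragments taken from the median transcript length the localized library had 0.196 fragments, which gives no ratio against it, and the last interval was 0.693 to 2.28 and includes 1. Muc20, a membrane mucin known to bind the Met receptor in human (chromosome 16, 32777419 to 32797435, minus strand), was at 0 in the localized library, with 0.529 FPKM in the invasive and 0.679 FPKM in the metastatic library. Had the localized library held 3 fragments, the floor used here, its level would be 0.0189 FPKM. Against a level at that floor Muc20 would be 28.0-fold higher in invasive and 36.0-fold higher in metastatic cells. These folds leave out the counting error of the invasive and metastatic levels, and the floor uses the longest transcript. The metastatic over invasive ratio of 1.29 had an interval of 0.945 to 1.75, which includes 1. The Muc4 and Muc20 genes overlap tail to tail over 4973 bases and share 627 exonic bases, of 11757 in Muc4 and 4027 in Muc20. Nothing in the sources used here says whether the libraries keep strand, and reads in that overlap cannot be told apart. Their log2(FPKM + 1) differences against the localized library, 0.58 and 0.68 for Muc4 and 0.61 and 0.75 for Muc20, are small because of the pseudocount, and neither gene passed the filter.

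**Figure D1:**
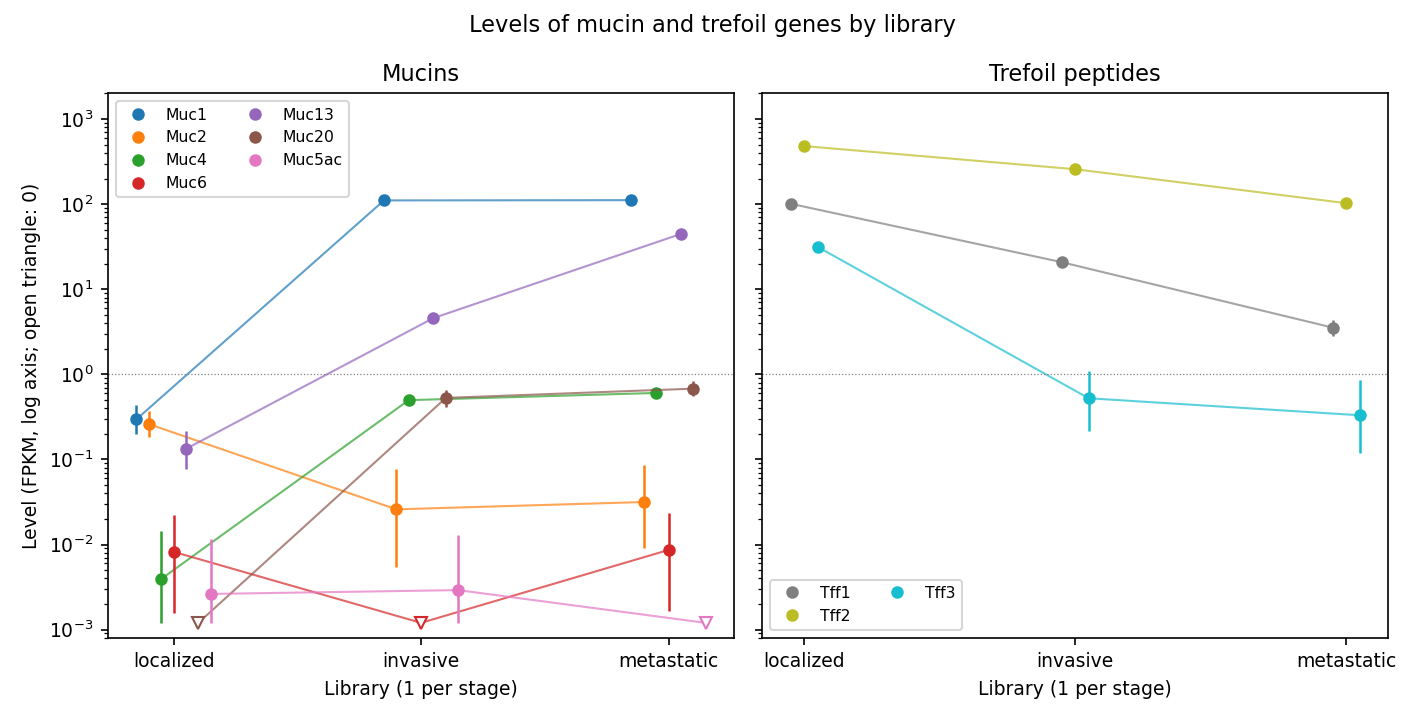
Level of each mucin (left) and trefoil gene (right) in the localized, invasive and metastatic libraries, in FPKM on a log axis. Points are single libraries, vertical lines are 95% counting intervals (drawn to the bottom where they reach it), open triangles mark a level of 0, lines join the values of a gene, and the dotted line is 1 FPKM. Muc1 and Muc13 reached 112 and 44.7 FPKM in the metastatic library, while Tff2 had 482, 258 and 103 FPKM along the stages.

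The secreted gel-forming mucins were under 1 FPKM in every library, and Muc5ac and Muc6 were at or near the floor of 3 fragments. Muc2, the main mucin of intestinal goblet cells (chromosome 7, 141690340 to 141754693, plus strand), had 0.260 FPKM in the localized, 0.0259 FPKM in the invasive and 0.0316 FPKM in the metastatic library. With the longest annotated transcript these are about 33, 3 and 4 fragments. The ratio of the invasive to the localized library was 0.0995 (0.0197 to 0.321) and that of the metastatic to the localized library 0.121 (0.0327 to 0.357). The annotated Muc2 transcripts are fragments of at most 2926 bases, and with their median length the localized library had 7 fragments and both intervals include 1. Muc5ac, the gastric surface mucin (chromosome 7, 141788972 to 141819231), had about 1 fragment in the localized (0.00262 FPKM) and 1 in the invasive library (0.00291 FPKM) and was at 0 in the metastatic library, where 3 fragments would be 0.00655 FPKM. Muc6, the gastric gland mucin (chromosome 7, 141633456 to 141655319), had about 3 fragments in the localized (0.00821 FPKM) and 3 in the metastatic library (0.00863 FPKM) and was at 0 in the invasive library, where the floor was 0.00853 FPKM. No difference in Muc5ac or Muc6 was detectable at this depth. Muc5b, which follows Muc5ac in the same cluster, is a further gel-forming mucin and no member. It had 0.00443 FPKM in the localized, 0.128 FPKM in the invasive and 0.193 FPKM in the metastatic library, a ratio of 28.8 (9.49 to 143) for invasive and 43.5 (14.4 to 211) for metastatic over localized. These levels correspond to about 3, 78 and 123 fragments, so the localized level is at the floor and both ratios rest on it. Muc5b was under the filter.

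The trefoil genes ran opposite to the membrane mucins. Tff2, the spasmolytic polypeptide of gastric glands with a pair of trefoil domains (ENSMUSG00000024028.7, chromosome 17, 31141049 to 31144282, minus strand), had 482 FPKM in the localized, 258 FPKM in the invasive and 103 FPKM in the metastatic library. The level was lower at each stage along the series, from about 8955, 4322 and 1820 fragments. It was 1.87-fold lower in the invasive than in the localized library (1.80 to 1.94), which is short of the 2-fold call, 4.69-fold lower in the metastatic than in the localized library (4.46 to 4.94) and 2.51-fold lower in the metastatic than in the invasive library (2.37 to 2.65). Even in the metastatic library Tff2 lay above 96.1% of all genes.

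Tff1, the trefoil peptide of gastric surface mucous cells (ENSMUSG00000024032.7, chromosome 17, 31161395 to 31165277, minus strand), had 101 FPKM in the localized, 20.8 FPKM in the invasive and 3.55 FPKM in the metastatic library. Both steps were of similar size. The invasive library was 4.86-fold below the localized library (4.40 to 5.39) and the metastatic library 5.88-fold below the invasive library (4.63 to 7.54), which makes 28.6-fold over both (22.9 to 36.1). Tff1 lay above 96.3%, 81.4% and 58.4% of all genes in the localized, invasive and metastatic libraries.

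Tff3, the goblet cell trefoil peptide (ENSMUSG00000024029.4, chromosome 17, 31125306 to 31129646, minus strand), had 31.5 FPKM in the localized, 0.524 FPKM in the invasive and 0.330 FPKM in the metastatic library. The localized library was the high one, with about 455 fragments, while the invasive library had 7 and the metastatic library 5. Tff3 was 60.2-fold lower in the invasive than in the localized library (28.3 to 147) and 95.4-fold lower in the metastatic than in the localized library (36.9 to 269). For metastatic over invasive the ratio of 0.631 had an interval of 0.169 to 2.48, which includes 1. Both members of the goblet cell pair, Tff3 and Muc2, had their highest level in the localized library. Muc2 was under the filter, and with the median transcript length its intervals against the localized library include 1. In every library Tff1 and Tff2 were present while Muc5ac and Muc6 were at 3 fragments or fewer.

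Summed over the 3 genes, trefoil levels came to 615 FPKM in localized, 279 FPKM in invasive and 107 FPKM in metastatic cells. Tff2 made up 78.4%, 92.3% and 96.4% of these sums, Tff1 16.5%, 7.47% and 3.32%, and Tff3 5.12%, 0.188% and 0.310%. The summed mucin FPKM was below the trefoil sum in the localized and invasive libraries and above it in the metastatic library, with 0.705, 116 and 158 FPKM.

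In order of level, the localized library ran Tff2, Tff1, Tff3, Muc1, Muc2, Muc13, Muc6, Muc4, Muc5ac and Muc20, and the counting intervals of Muc1 and Muc2, of Muc2 and Muc13 and of each neighbouring pair from Muc6 on overlap. In the invasive library the order was Tff2, Muc1, Tff1, Muc13, Muc20, Tff3, Muc4, Muc2, Muc5ac and Muc6. There Muc20, Tff3 and Muc4 have overlapping intervals, as have neighbours from Muc2 on. The metastatic library began with Muc1 at 112 FPKM (109 to 114) ahead of Tff2 at 103 FPKM (98.1 to 108), then Muc13 and Tff1. Muc20, Muc4 and Tff3 followed with overlapping intervals, and Muc2, Muc6 and Muc5ac came last. These intervals use the longest transcript. With the median length Muc1 had about 1570 fragments in the metastatic library in place of 9983. Its interval is then wider, and its place ahead of Tff2 was not tested at that length.

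Of the 10 members 5 passed the filter and could be called. Of these 5, 2 (Muc1 and Muc13) passed 2-fold as higher in the invasive than in the localized library, where 8.78% of all genes past the filter were called in that direction. The lower ones were Tff1 and Tff3, 2 members, with 6.07% of all genes called. For metastatic against localized 2 were higher (Muc1 and Muc13, background 9.08%) and 3 lower (Tff1, Tff2 and Tff3, background 7.29%). For metastatic against invasive 1 was higher (Muc13, background 1.33%) and 2 were lower (Tff1 and Tff2, background 1.67%). The median log2(FPKM + 1) difference over all 10 was -0.0057, -0.0016 and 0.0091 in the same order, since the members went both ways and 5 lay under the filter. Both comparisons with the localized library share that library. The 5 members past the filter were Muc1, Muc13, Tff1, Tff2 and Tff3, and Muc1, Muc13 and Tff3 passed through the libraries in which they were high.

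**Figure D2:**
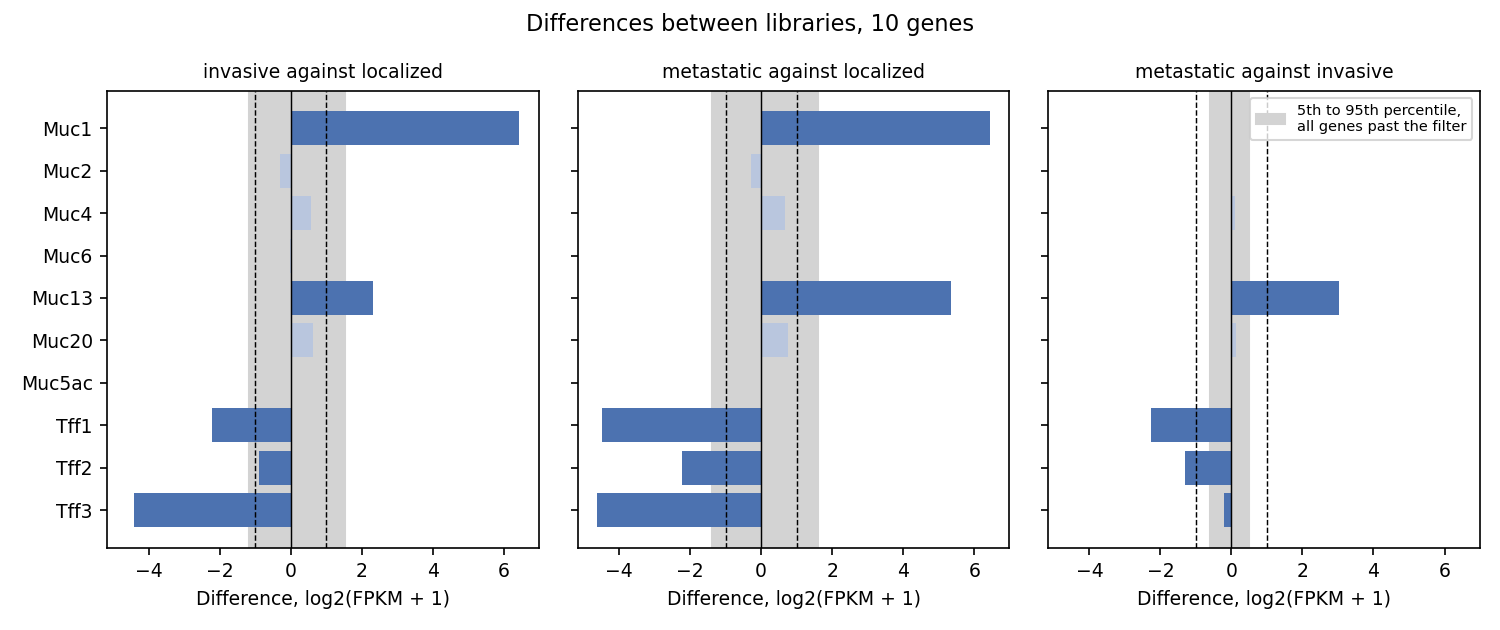
Difference in log2(FPKM + 1) between 2 libraries for each of the 10 genes, 1 panel per pair, with the library named first minus the second. Dark bars are genes past the filter of a mean of 1 FPKM, pale bars genes under it, dashed lines mark 2-fold, and the grey band spans the 5th to 95th percentile of all 11404 genes past the filter (-1.17 to 1.52 for invasive against localized). Muc1 reached 6.43 and 6.44 against the localized library and 0.01 between the metastatic and invasive libraries.

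The 3 trefoil genes lie side by side in the order Tff3, Tff2, Tff1, with 11403 bases between Tff3 and Tff2 and 17113 between Tff2 and Tff1. Their protein-coding neighbours were weakly expressed. Abcg1, a cholesterol exporter 7318 bases from Tff3, had 1.72, 0.258 and 0.118 FPKM along the stages and was thus also lower in the invasive and metastatic libraries. Tmprss3, a serine protease gene 13988 bases from Tff1, had 0.197, 0.142 and 0.0270 FPKM, and Ubash3a was at or near 0. Beside Muc1, Trim46 on the opposite strand, 796 bases away, had 5.24, 23.6 and 18.3 FPKM, and Thbs3 on the other side, a thrombospondin gene 2220 bases away, had 6.42, 30.4 and 16.6 FPKM. Mtx1, on the side of Thbs3 and nearer to Muc1 at 1969 bases, had 27.8, 33.0 and 39.2 FPKM. Mtx1 and Krtcap2, which lies beyond Trim46, differed by at most 0.50 on the log2(FPKM + 1) scale. Heg1, 22461 bases before Muc13, had 1.93, 11.5 and 10.4 FPKM, and Itgb5, an integrin chain gene 9731 bases after it, 74.0, 69.2 and 62.7 FPKM. Neither followed the step of Muc13 from the invasive to the metastatic library, with differences of -0.14 and -0.14. Around Muc4 and Muc20, Tnk2 had 47.1, 72.1 and 89.9 FPKM and Fyttd1 20.6, 21.5 and 26.1 FPKM.

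**Figure D3:**
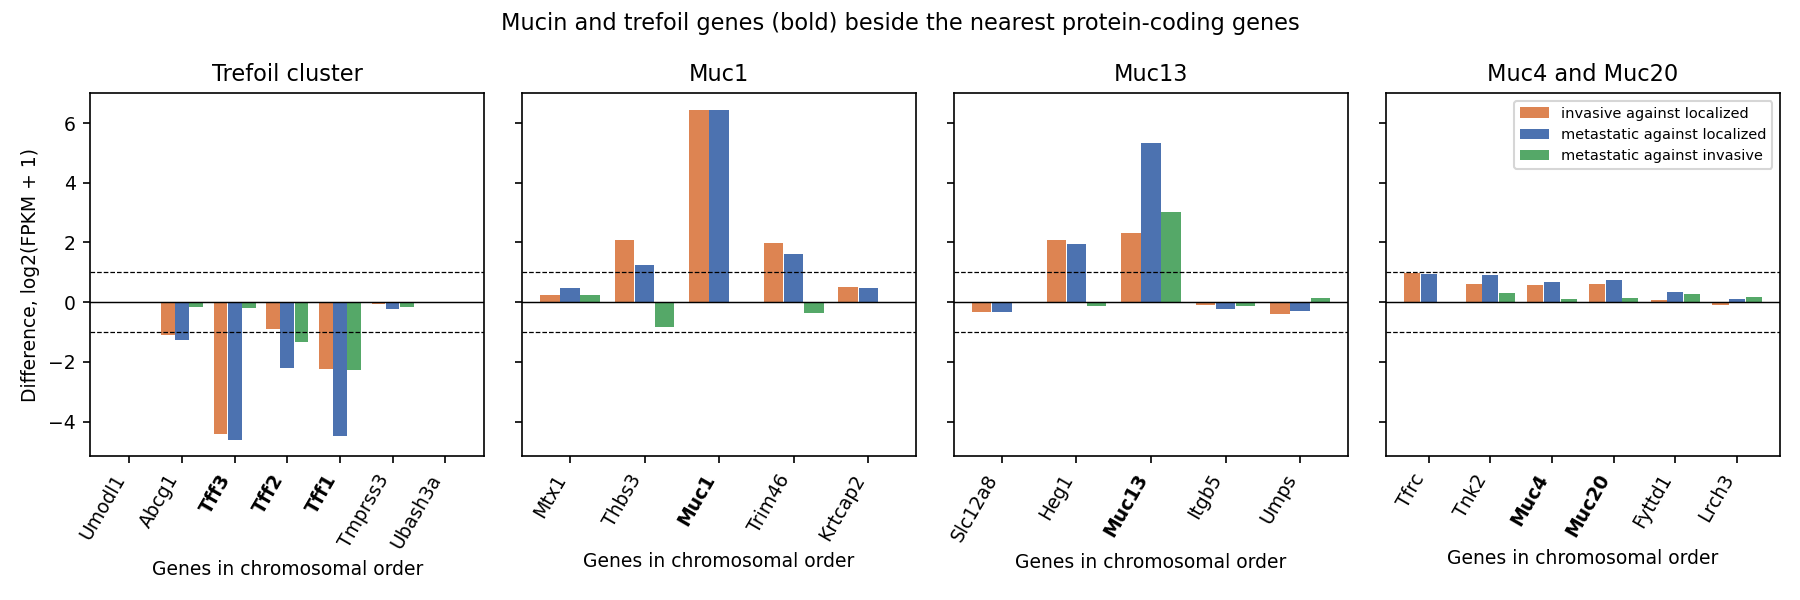
Difference in log2(FPKM + 1) for mucin and trefoil genes (bold) and the nearest protein-coding genes on either side, in chromosomal order, with a bar per pair of libraries and dashed lines at 2-fold. Distances between genes are not to scale. Muc1, at 6.43, stands between Thbs3 at 2.08 and Trim46 at 1.98 for invasive against localized, with Mtx1 at 0.24.

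Genes with a profile like that of a member were named by the smallest Euclidean distance between log2(FPKM + 1) profiles, each centred on its own mean, over the 3 libraries. With 3 points this is a description. Closest to Muc1 were Duoxa2, the maturation factor of a dual oxidase (distance 0.223), Nox1, a superoxide-producing oxidase (0.224), and Plet1, a surface protein (0.335). Closest to Muc13 were Slc5a8, a monocarboxylate transporter (0.568), Cdhr5, a brush border protocadherin (0.725), and Acsm3 (0.818). Cdhr5 had 0.0779 FPKM in the localized, 9.75 FPKM in the invasive and 56.0 FPKM in the metastatic library. For Tff1 they were Cd248 (0.369), Tpm2 (0.381) and Tubb3 (0.578), for Tff2 Jun (0.0699), Acan (0.0860) and Col4a5 (0.115), and for Tff3 Spon2 (0.0200), Tex11 (0.181) and the chemokine gene Cxcl12 (0.205). Spon2, a secreted matrix protein gene, had 31.4, 0.542 and 0.346 FPKM beside 31.5, 0.524 and 0.330 FPKM for Tff3.

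O-glycans are built on mucins in steps, beginning with GalNAc transferases. Of 16 listed transferases 10 passed the filter, 3 of them higher and 3 lower in the invasive than in the localized library. Over all genes past the filter, 8.78% were called higher and 6.07% lower in that comparison. Galnt3 had 4.32, 27.5 and 29.2 FPKM along the stages and Galnt4 6.45, 46.5 and 54.2 FPKM, whereas Galnt15 had 10.9, 0.123 and 0.0744 FPKM. Of 23 enzymes that extend, branch or cap the chains 13 passed, with 4 higher and 2 lower in the invasive and 4 higher and 4 lower in the metastatic library, each against the localized one. For the metastatic library the shares over all genes past the filter were 9.08% higher and 7.29% lower. Gcnt3, a mucin-type core branching enzyme, had 0.0318 FPKM in the localized, 10.02 FPKM in the invasive and 25.3 FPKM in the metastatic library. Its relative Gcnt1 went the other way with 29.4, 7.99 and 7.44 FPKM. The sialyltransferases St6galnac2 and St3gal6 had 0.802, 22.9 and 9.08 FPKM and 30.6, 69.2 and 109 FPKM. St6galnac1 was listed at 0 in every library.

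Goblet cell genes, of which 7 of 21 listed passed the filter, had 3 higher and 0 lower in the invasive and 4 higher and 0 lower in the metastatic library, against the localized library. Over all genes past the filter the called shares were 8.78% higher and 6.07% lower (invasive), and 9.08% higher and 7.29% lower (metastatic). Fcgbp, a mucus protein that binds Muc2, had 0.0141, 7.62 and 13.8 FPKM along the stages, and Spink4 0.205, 26.9 and 12.2 FPKM. Agr2, the disulfide isomerase needed to fold Muc2, stayed at or below 0.0418 FPKM in every library, and Zg16 and Retnlb were listed at 0 throughout. Tff3, by contrast, was highest in the localized library, as was Muc2, which was under the filter. Creb3l1, a secretory pathway factor, had 13.4, 75.8 and 42.1 FPKM, and the chloride channel regulator Clca1 0.415, 0.895 and 2.56 FPKM. Gastric mucous genes passed for 6 of 15, with 5 higher and 1 lower in the invasive and 4 higher and 1 lower in the metastatic library, again against the localized one. Cldn18, the gastric claudin, had 0.345, 82.8 and 59.1 FPKM, the junction protein gene Vsig1 0.545, 15.9 and 16.9 FPKM and the tetraspanin gene Tspan8 31.2, 439 and 429 FPKM, opposite to Tff1 and Tff2. The water channel gene Aqp5, the lower member, had 182, 6.20 and 5.01 FPKM. Gkn2, which binds Tff1, and A4gnt, which makes the glycan of Muc6, were listed at 0 in every library. Of 13 other mucins and mucin-like genes 8 were in the table and 2 passed, Cd164 with 102, 131 and 112 FPKM and Podxl with 9.73, 20.7 and 26.7 FPKM.

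Of 26 transcription factors known to act on mucin or trefoil genes 17 passed the filter. Against the localized library 9 were higher and 0 lower in the invasive library, and 10 were higher and 1 lower in the metastatic library. The shares over all genes past the filter were 8.78% higher and 6.07% lower (invasive), and 9.08% higher and 7.29% lower (metastatic). Elf3 had 7.20, 102 and 97.5 FPKM along the stages, Gata5 0.0280, 17.0 and 16.3 FPKM and Gata6 0.384, 7.28 and 8.42 FPKM, each low in the localized library and alike in the other 2. Ehf (16.7, 82.0 and 67.4 FPKM), Klf5 (17.4, 56.2 and 65.4 FPKM), Foxa1 (3.05, 11.8 and 10.8 FPKM) and Hes1 (9.11, 66.9 and 40.8 FPKM) were also higher in both later stages. Creb3l1 is on this list as well as on the goblet cell list. Cdx2, an intestinal homeobox factor, had 5.40, 35.2 and 70.6 FPKM and Hnf4a 11.9, 24.1 and 34.2 FPKM, both highest in the metastatic library. Between the metastatic and invasive libraries their log2(FPKM + 1) differences were 0.98 and 0.49, with Cdx2 just short of the call on that scale. Sox2, a foregut factor, was the 1 that was lower, with 17.05, 8.97 and 3.98 FPKM. Foxa2 had 22.5, 17.7 and 12.4 FPKM, under the 2-fold call. Foxa3, with 0.552, 0.248 and 0.0371 FPKM, was lower at each stage but under the filter, so it could not be called. Spdef and Atoh1, which direct goblet cell fate, had at most 0.133 FPKM and 0 FPKM. Among partners, sheddases and receptors 14 of 18 passed, with 4 higher and 1 lower in the invasive and 5 higher and 2 lower in the metastatic library, relative to the localized one. The protease receptor gene F2rl1 had 10.8, 50.7 and 71.7 FPKM and the junction protein gene Jup 23.0, 64.5 and 49.5 FPKM. Erbb3, a receptor partner of ErbB2, had 0.723, 6.29 and 7.86 FPKM and Ackr3, a receptor reported for trefoil peptides, 114, 36.1 and 31.6 FPKM. Between the metastatic and invasive libraries these 7 lists held 2 higher and 4 lower calls, among them Gcnt3 (log2 difference 1.25) and Galnt18 (1.34) as higher and Spink4 (-1.08) and Sox2 (-1.003) as lower. Over all genes past the filter 1.33% were called higher and 1.67% lower in that pair.

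**Figure D4:**
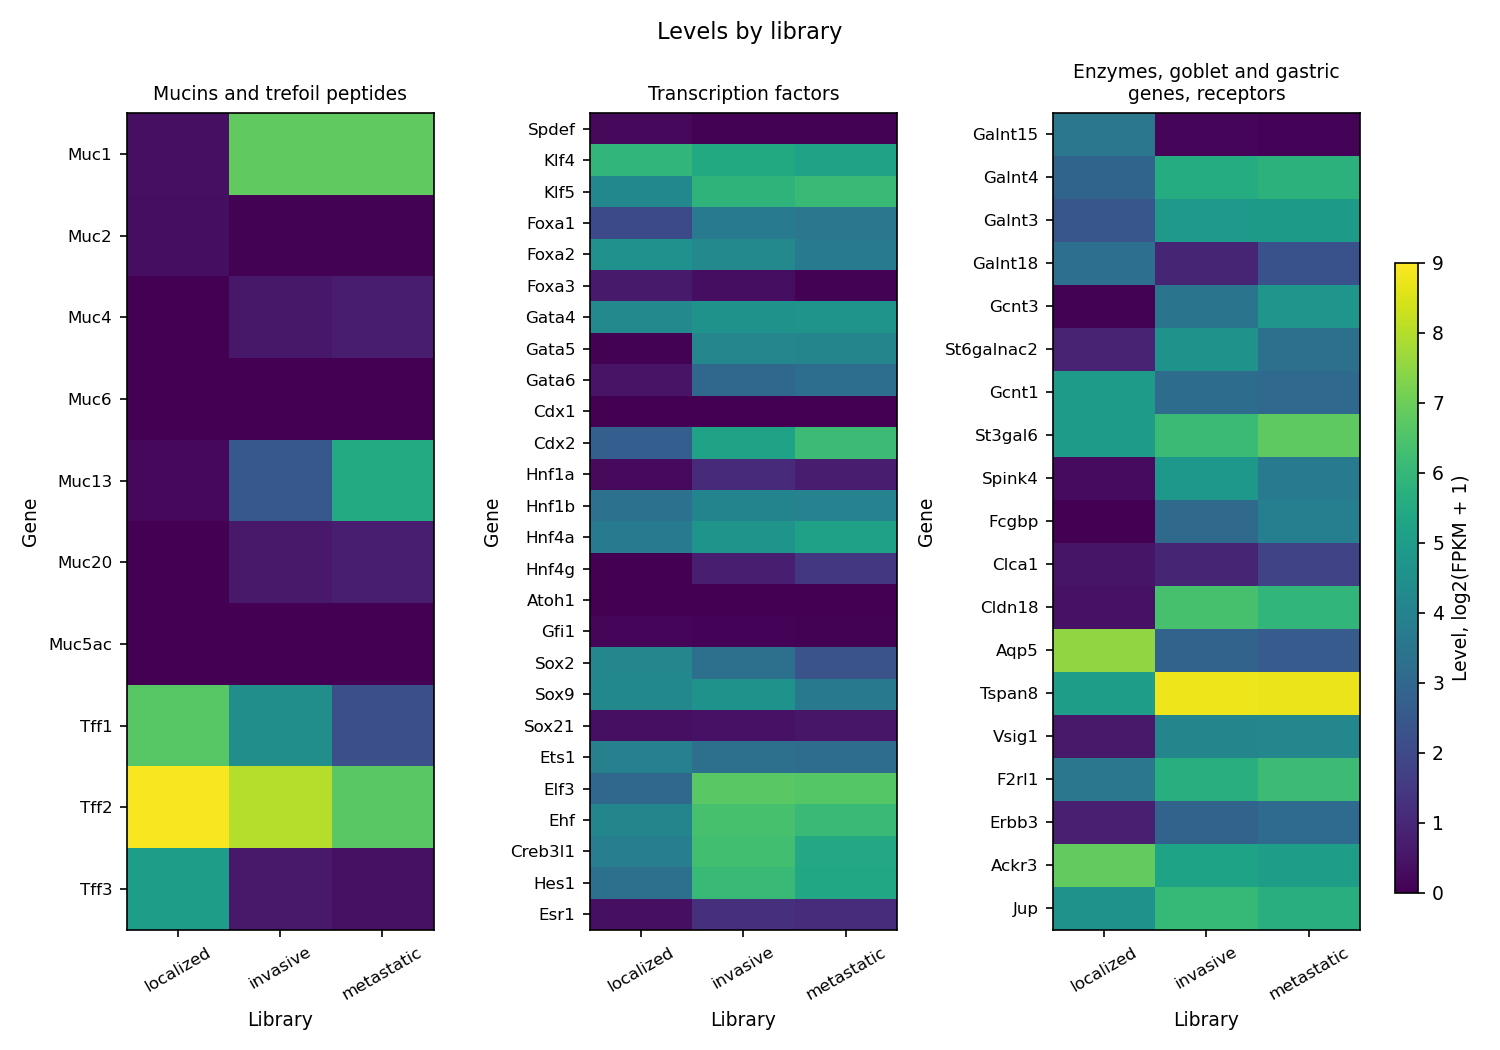
Level in log2(FPKM + 1), by colour, of the 10 mucin and trefoil genes (left), of transcription factors (middle) and of enzymes, goblet and gastric genes and receptors (right) in the localized, invasive and metastatic libraries. Darker is lower, and the trefoil genes darken from left to right, with Tff1 at 101, 20.8 and 3.55 FPKM, while Cldn18, a gastric gene, had 0.345, 82.8 and 59.1 FPKM.

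Marker lists of other cell types were read beside these results. Ductal markers reached 1 FPKM for 5, 8 and 9 of 10 genes in the localized, invasive and metastatic libraries, with Krt7 at 0.793, 598 and 1077 FPKM. Spp1, the highest of them in the localized and invasive libraries, ran the other way with 4444, 3312 and 2196 FPKM, and Sox9 had 17.5, 23.3 and 11.4 FPKM. Fibroblast markers moved as a sum in the direction of the trefoil genes, with 625, 97.1 and 14.4 FPKM. Of 12 genes 10, 6 and 4 reached 1 FPKM. Lum and Thy1, above 1 FPKM in the localized library, were at 0 in the metastatic library. Fap (0.0433, 0.0384 and 0 FPKM) and Postn (0.0148, 0 and 0 FPKM) were near 0 in every library, the localized one included. Pdgfra (42.7, 1.09 and 1.97 FPKM) and Pdgfrb (8.37, 0.838 and 1.84 FPKM) were lowest in the invasive library, unlike the trefoil genes. The part of the fibroblast markers in the trefoil and mucin differences was not tested. Acinar and hepatocyte markers stayed under 1 FPKM in every library, the Liver label included, and Alb had at most 0.0586 FPKM. Leukocyte markers summed to 4.95, 12.8 and 15.2 FPKM, with Cd68 the highest, and endothelial markers to at most 1.52 FPKM. Among 12 muscle and body wall markers Msln, also a gene of pancreatic tumours, held nearly all of the sum, with 106, 291 and 409 FPKM. The muscle genes were under 1 FPKM in every library, the Body wall label included, with Des at most 0.0379 FPKM and Ckm at 0. Those detected were highest in the localized library, among them Tnnt3 (0.589, 0 and 0.0563 FPKM) and Acta1 (0.118, 0.0186 and 0 FPKM). Myod1 (0.0914, 0 and 0.0412 FPKM) and Myog (0.0840, 0 and 0 FPKM) were further ones. Housekeeping genes had median log2 differences of 0.02, 0.08 and 0.06 (invasive minus localized, metastatic minus localized, metastatic minus invasive). Of 15 genes 0 were higher and 1, B2m, was lower, in the metastatic than in the localized library (9.08% and 7.29% over all genes past the filter).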

How the data were processed

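RNA-seq of 3 mouse cell lines, 1 library each, was read from 1 table of FPKM values that the authors deposited, with 22784 entries. Trizol RNA (1 ug) and the Illumina TruSeq kit were used per the labels' protocols. Cufflinks 2.2.1, STAR 2.5.2a, FastQC 0.11.2 and GRCm38 are listed, per the submitters' processing notes, without roles. No column held a value under 0.1, which was read as an offset and subtracted. Entries with a date in place of a symbol (27) were dropped, and 19 short RNA genes were left out of the counts.

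Differences were taken in log2(FPKM + 1), with a filter of a mean of 1 FPKM and a call at 2-fold. No test was possible with 1 library per group. Depth was estimated from the steps of low values in single-transcript genes longer than 1500 bases (GENCODE M21), with 175 bases taken off each length. Fragments of a gene use its longest transcript, and intervals are exact (Poisson for levels, conditional binomial for ratios). The depth estimate and the calls were tested on simulated data. Python 3.11.15, NumPy 2.4.6, pandas 2.3.3, SciPy 1.17.1 and Matplotlib 3.10.9 were used.

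The members, gene lists and rules were chosen with earlier results of these data known. All members were named. From each list up to 4 genes with the largest difference past 2-fold could be named, with any transcription factor, the highest gene of a marker list and, by likeness, 3 genes per member. Neighbouring genes and genes given to describe a list, such as Muc5b, Agr2, Zg16, Retnlb, Gkn2, A4gnt, St6galnac1, Cd164, Alb, Des, Ckm and Postn, were chosen after their values were seen. Alternatives were another pseudocount, filter, scale, call and transcript length.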

Additional observations from a re-analysis of the deposited data

How the results depend on the processing

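All 6 counts of called members held within 1.5 times under 7 alternatives: deposited values as they stand, a pseudocount of 0.1, no filter, a filter of 5 FPKM in the highest library, TPM and median-ratio scales, and a 1.5-fold call. The called genes were the same 2, 2, 2, 3, 1 and 2 members, except that the 1.5-fold call added Tff2 as lower in the invasive library. No difference of a called member reversed. A pseudocount of 0.1 gave Muc1 8.13 (log2) for invasive against localized and Muc13 4.33. For invasive and metastatic against localized it also put Muc4 (2.52 and 2.76), Muc20 (2.65 and 2.96) and Muc2 (-1.52 and -1.45) past 2-fold. The filter alone kept these genes from being called, and pseudocount and filter were not changed together. Without the filter, the median of the gastric list was 0.26 and 0.09 for invasive and metastatic against localized, in place of 2.60 and 2.54, that of the transcription factors 0.71 and 0.55 in place of 1.64 and 1.54, that of the goblet cell list 0 in place of 1.33 for metastatic against localized, and that of the muscle and body wall list -0.025 in place of 1.41 for invasive against localized, since genes near 0 enter. The leukocyte medians were 0.15 and 0.07 in place of 1.17 and 1.72 for invasive and metastatic against localized, and 0.99 and 0.91 with the filter of 5 FPKM. That filter took the goblet cell median for invasive against localized to 2.41, in place of 0.42. Median transcript length moved 12 of 30 fragment estimates beyond their counting interval, and Muc1 in the localized library then had 4.38 fragments in place of 27.8 and an invasive over localized interval of 159 to 1502. Over all genes, the 1.5-fold call took the higher and lower calls to 1727 and 1361 for invasive against localized (1001 and 692 at 2-fold), 1816 and 1607 for metastatic against localized (1035 and 831) and 400 and 610 for metastatic against invasive (152 and 191), and a pseudocount of 0.1 gave 373 lower in the last pair. No paired analysis was possible because each stage has 1 library. Depth limits Muc5ac, Muc6, Muc2 and, between the invasive and metastatic libraries, Tff3, Muc20 and (at the median transcript length) Muc4. Against the localized library it limits the size of the Muc4 and Muc20 differences, since that library held about 2 and 0 fragments of them.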
